A study of Mus musculus with 35 samples.

Results

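The comparison described here is that of MT194 cells infected with Ad-Cre (MT194-Cre) and with Ad-GFP (MT194-GFP). It took the libraries whose labels name the construct MT194 and either virus, which were 4 of the 35 libraries of the series, 2 per group. NELFB is a subunit of the negative elongation factor, NELF. The study asked which functions of mouse NELFB need an intact NELF complex at paused RNA polymerase II, by putting mutants of NELFB back into cells that lose the endogenous gene. Its other libraries were populations with an empty vector (EV), wild-type NELFB (WT), another mutant, MT486, or both mutations (DMT), which entered the shared fit, and further libraries such as stable clones, which were not used here.

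All 4 libraries came from immortalized mouse embryonic fibroblasts of genotype Nelfb flox/-, that is, with a null allele and a floxed allele of Nelfb. The cells carried MT194 from a pLenti vector, a lentiviral construct selected with G418 that tags NELFB with flag. MT194-Cre cells had received Ad-Cre-GFP, an adenovirus that expresses Cre recombinase and deletes the floxed allele. MT194-GFP cells had received Ad-GFP, the virus without the recombinase, and so kept the floxed allele beside the construct. RNA was taken 7 days after infection. The study reports that MT194 carries alanine substitutions, does not bind NELFA or NELFC, still binds NELFE and is found mainly in the cytoplasm. Each population is a pool of infected cells from 1 parental line, so that cells that escaped Cre may be included, and their share was not measured here. In such bulk RNA, fewer cells with a transcript and less of it per cell cannot be told apart.

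NELF and DSIF hold RNA polymerase II shortly after it has started a transcript, and the kinase P-TEFb releases it. NELFB bridges the other NELF subunits, so that a form that cannot bind NELFC leaves the complex incomplete. In fibroblasts, NELF is known for its part in the response of immediate early genes and in heat shock genes.

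Poly(A) RNA was sequenced in single reads of 50 bp. Reads counted on genes numbered 19785547 and 21081146 in MT194-GFP and 24644148 and 24873566 in MT194-Cre. Values are given as CPM, which are counts scaled to the depth of each library after TMM normalization and are compared within a gene, not between genes. The labels call the 2 libraries of a group biological replicates and the study describes 2 independent experiments, so that p-values measure the spread between these libraries. Tests are edgeR's quasi-likelihood tests with Benjamini-Hochberg adjustment over 13805 genes, in a fit that shares the spread of 10 groups of 2 libraries. For leaving out 1 library, Cre-1, Cre-2, GFP-1 and GFP-2 stand for replicates 1 and 2 of MT194-Cre and MT194-GFP, and the adjusted p without a library is given where it ended a call. These fits took no account of the replicate number, and they left the library of the same number and the other virus without its partner. Whether the same calls end when replicate number is in the fit was not tested. A gene passed the test at an adjusted p under 0.05, and was called when its log2 fold change also exceeded 1 in size.

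By the median difference of a gene, replicates of the same number were more alike than the 2 libraries of a group. The median difference of a gene between MT194-GFP replicate 1 and MT194-Cre replicate 1 was 0.269 on the log2 scale, and between both replicates 2 it was 0.255. Between the 2 MT194-GFP libraries it was 0.347, and between the 2 MT194-Cre libraries 0.376. The SD of the differences over all genes gave another order, with 0.518 between the 2 MT194-GFP libraries, 0.582 and 0.572 within the pairs of replicates 1 and 2, and 0.588 between the 2 MT194-Cre libraries. MT194-Cre replicate 2 differed in composition from the other MT194 libraries. Its 20 most abundant genes held 13.3% of its reads, against 8.26% in MT194-Cre replicate 1, 8.12% in MT194-GFP replicate 1 and 9.72% in MT194-GFP replicate 2, and its TMM factor was 0.835, against 0.955 to 1.07 in the other 3. The replicates 2 with Ad-Cre of EV, MT486 and DMT lay on the same side, with 12.1%, 12.0% and 12.2% of reads in the top 20 genes and TMM factors of 0.928, 0.947 and 0.905, and that of WT had 9.23% and 0.991. Results without it are given below, and those of a fit blocked on replicate number stand beside the values they change.

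Nelfb, on chromosome 2 from 25199712 to 25211489 of mm10, was read from both the floxed allele and the construct, so that its RNA does not show the deletion by itself. It had 74.0 and 62.1 CPM in MT194-GFP replicates 1 and 2, and 104 and 119 CPM in MT194-Cre. Both libraries with Ad-Cre were above both with Ad-GFP. The log2 fold change was 0.71 (standard error 0.20), and edgeR's quasi-likelihood test gave an adjusted p of 0.0637, and of 0.00303 with the replicate block. With EV, where no construct adds reads, Nelfb had 46.1 and 39.5 CPM with Ad-GFP and 7.97 and 5.46 CPM with Ad-Cre. The difference between the Cre effects of MT194 and EV was 3.38 (0.29, edgeR quasi-likelihood adjusted p 0.000449 over all genes). With MT486 and WT, which also carry a construct, the log2 fold changes of Nelfb were 0.51 and -0.40.

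The other subunits did not pass the test in MT194 cells, with log2 fold changes of -0.07 for Nelfa, 0.20 for Nelfcd and -0.15 for Nelfe. Of the 8 genes of DSIF and P-TEFb none passed, and Supt5, the large DSIF subunit, had 239 and 244 CPM with Ad-GFP and 241 and 239 CPM with Ad-Cre. With the block, 1 of the 8 was higher and 1 lower, near the shares of all genes with the block, which were 12.9% higher and 13.8% lower.

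Ad-Cre changed 343 of the 13805 genes (2.48%) beyond a log2 fold change of 1, of which 165 were higher (1.2%) and 178 lower (1.29%). At any size, 620 passed (4.49%), 268 higher (1.94%) and 352 lower (2.55%), and 2267 had an unadjusted p under 0.05 (16.4%). All 343 called genes moved the same way in both pairs and had groups that did not overlap, which 34.7% of all genes had. By size, 71 genes rose and 73 fell by 1 to 1.5 on the log2 scale, 49 and 46 by 1.5 to 2, 37 and 47 by 2 to 3, and 8 and 12 by more than 3. With the replicate block 744 genes were called, 398 higher and 346 lower, among them all 343. There were 231 without Cre-1, 205 without Cre-2, 149 without GFP-1 and 202 without GFP-2. When the 4 MT194 libraries were fitted alone without the block, none of 13220 genes passed by edgeR's quasi-likelihood test, and no list member did, with 1113 genes at an unadjusted p under 0.05, whereas with the block that fit called 494. Across all genes, the changes of both pairs had Pearson's r = 0.59 (n = 13805 genes, which are not independent replicates and share 4 libraries), and 69.0% had the same sign.

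**Figure D1:**
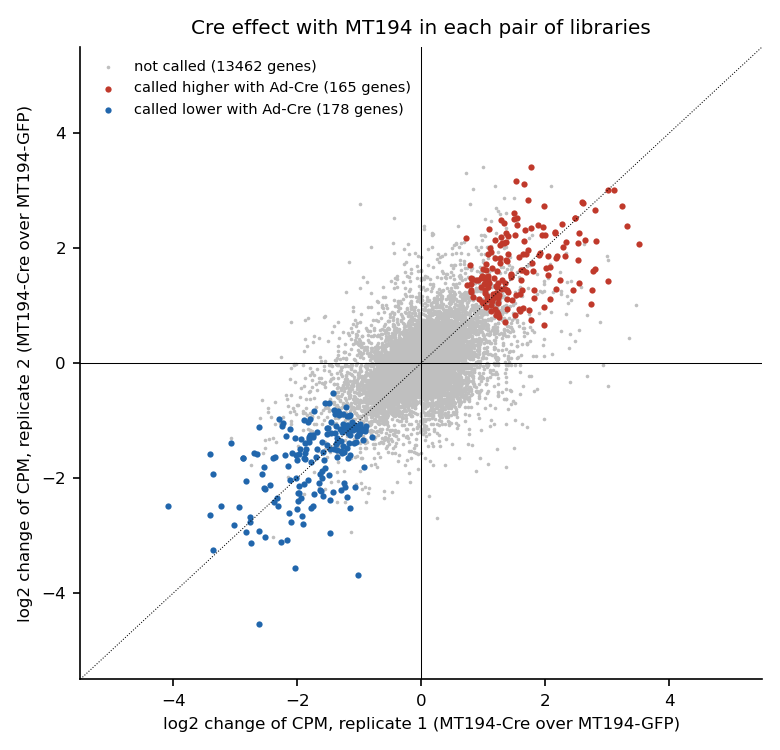
Log2 change of CPM from MT194-GFP to MT194-Cre in the pair of replicates 1 (horizontal axis) and of replicates 2 (vertical axis), with 1 point per gene. The 165 genes called higher (red) lie in the upper right and the 178 called lower (blue) in the lower left, so that all moved the same way in both pairs.

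Genes of sterol synthesis fell. Cholesterol is made from acetyl-CoA by way of mevalonate, squalene and lanosterol, and the genes of these enzymes are activated together by SREBP2, a transcription factor that is held back by INSIG proteins when sterols are plentiful. All 20 genes measured on the mevalonate and cholesterol list were lower with Ad-Cre in both pairs, as were 34.2% of all genes. Of the 20, 17 passed the test and 20 did with the block, against 2.55% and 13.8% of all genes as lower. Their median log2 fold change was -2.17, against 0.01 over all genes tested. Without MT194-Cre replicate 2, 13 of the 20 passed.

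Among the early enzymes, Hmgcs1, which makes HMG-CoA, had 621 and 447 CPM with Ad-GFP and 155 and 77.0 CPM with Ad-Cre. Both libraries with Ad-Cre lay well below those with Ad-GFP, and the log2 fold change was -2.20 (standard error 0.41, with an edgeR quasi-likelihood adjusted p of 0.00824, 0.0748 without Cre-2 and 0.0706 without GFP-1). Mvd, the decarboxylase of the mevalonate branch, on chromosome 8 from 122433601 to 122443422, had 123 and 92.7 CPM with Ad-GFP and 18.2 and 10.4 CPM with Ad-Cre, a log2 fold change of -2.91 (0.36, 0.000799). Fdps, which makes farnesyl diphosphate, changed by -2.59 (0.40, 0.0031).

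Genes of later steps fell too. Lss, which closes the sterol ring, had 209 and 192 CPM with Ad-GFP and 48.4 and 28.2 CPM with Ad-Cre, a log2 fold change of -2.39 (0.24, 0.000272). Tm7sf2, a sterol reductase on chromosome 19 from 6062821 to 6068373, had 35.6 and 45.8 CPM with Ad-GFP and 4.92 and 5.92 CPM with Ad-Cre, a change of -2.91 (0.33, 0.000543). In each of these genes the gap between the groups was wider than the difference between replicates of a group. Sqle, the squalene epoxidase, fell by 1.74 (0.27, 0.003) and Dhcr7, the last reductase of a branch, by 2.34 (0.33, 0.00172). The 3 members that did not pass were Idi1, with a log2 fold change of -2.65 at an adjusted p of 0.0623, Sc5d, with -1.15 at 0.057, and Ebp, with -0.81 at 0.185, all by edgeR's quasi-likelihood test, and all 3 passed with the block.

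Genes of the regulation and uptake of sterols fell in part. Of 17 genes measured, 7 passed as lower and none as higher, and 8 were lower with the block, against 2.55% and 13.8% of all genes. Insig1, itself a target of SREBP2 and its inhibitor, had 205 and 229 CPM with Ad-GFP and 45.5 and 27.2 CPM with Ad-Cre, a fall of 2.58 (0.25, 0.000272) on the log2 scale. Both libraries with Ad-Cre were far below both with Ad-GFP. Srebf2, which encodes SREBP2, had 504 and 752 CPM with Ad-GFP and 262 and 298 CPM with Ad-Cre, a fall of 1.17 (0.26, 0.0207, 0.136 without Cre-1, 0.0756 without Cre-2 and 0.178 without GFP-2). Srebf1 had a log2 fold change of -0.31 (adjusted p 0.821), and Abca1, a sterol exporter driven by other receptors, of -0.39 (0.81). Without Cre-1, Cre-2, GFP-1 and GFP-2, 4, 3, 4 and 3 of the 17 passed.

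Fatty acid genes fell in part, with smaller changes. All 14 measured were lower in both pairs, with a median log2 fold change of -1.05, and 7 passed the test, 12 with the block, against the same shares of all genes. Scd2, a desaturase, had 3185 and 4307 CPM with Ad-GFP and 810 and 979 CPM with Ad-Cre. Its paralog Scd1 had 429 and 533 CPM with Ad-GFP and 115 and 123 CPM with Ad-Cre. Both libraries with Ad-Cre lay far below those with Ad-GFP, and the genes fell by 2.07 (0.34, 0.00377) and 2.01 (0.23, 0.000543) on the log2 scale by edgeR's quasi-likelihood test. Fasn, the fatty acid synthase, fell by 1.09 (0.16, 0.00256), Acss2, which makes acetyl-CoA from acetate, by 1.54 (0.16, 0.000272), and Elovl6, an elongase, by 1.44 (0.28, 0.01, 0.0855 without Cre-1, 0.0504 without Cre-2 and 0.0763 without GFP-2). Without MT194-Cre replicate 2, 4 of the 14 passed.

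**Figure D2:**
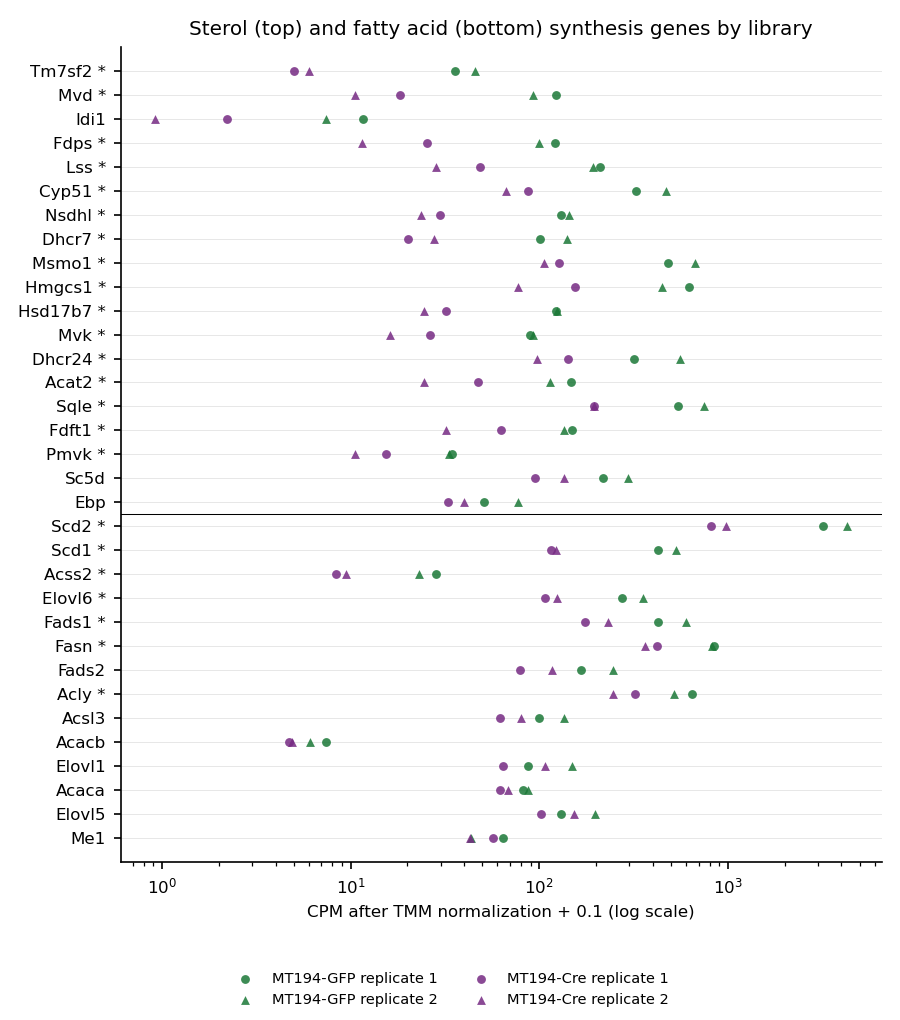
CPM after TMM normalization, plotted with 0.1 added on a log axis, of 19 sterol genes (top) and 14 fatty acid genes (bottom) in the 4 MT194 libraries, green for Ad-GFP and purple for Ad-Cre, circles for replicate 1 and triangles for replicate 2, with an asterisk where the test was passed. For all 19 sterol genes shown both purple symbols lie to the left of both green ones.

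Few other metabolic genes passed the test without the block. Of all genes, 2.55% passed as lower, 13.8% did with the block, and 34.2% were lower in both pairs. Of 25 genes on the citrate cycle list 1 passed, and 13 were lower with the block. The 1 was Idh1, a cytosolic isocitrate dehydrogenase that makes NADPH, so that no gene of the mitochondrial cycle passed without the block. Idh1 fell by 1.48 (0.37, edgeR quasi-likelihood adjusted p 0.0372), and its call ended without any 1 library. None of 71 nuclear genes of oxidative phosphorylation passed, with a median log2 fold change of -0.21, although 54 were lower in both pairs and 21 were lower with the block. Atp5b, a subunit of ATP synthase, had 1231 and 1054 CPM with Ad-GFP and 1035 and 832 CPM with Ad-Cre, a change of -0.29 (0.24, 0.647, and 0.0433 with the block). None of 45 cytosolic ribosomal genes passed, and 3 were lower and 1 higher with the block, which are smaller shares than those of all genes (12.9% as higher). Some members of both lists were near the floor, where a change is hard to detect. Rpl30 had means of 0.267 CPM with Ad-GFP and 0.495 CPM with Ad-Cre, whereas Rpl4 had 664 and 665 CPM. On the oxidative phosphorylation list, Atp5l had 0.659 and 0.54 CPM. The cause of these low counts was not tested.

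Interferon-stimulated genes rose in part. These genes are switched on by interferons through a complex of STAT proteins and IRF9, and encode antiviral proteins. Of 40 measured, 37 were higher with Ad-Cre in both pairs, as were 4803 of all 13805 genes. Of the 40, 19 passed as higher, 35 with the block and none as lower, against 1.94% and 12.9% of all genes as higher. The median log2 fold change of the list was 1.05. Fewer of the 40 passed on leaving out any 1 library without the block, and leaving out a library with the block was not tested. Both arms had received an adenovirus, and whether viral load differed between them was not tested.

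Bst2, which tethers budding virus, on chromosome 8 from 71534255 to 71537456, had 119 and 127 CPM with Ad-GFP and 291 and 579 CPM with Ad-Cre. Ifit3, which binds viral RNA complexes, had 16.0 and 7.80 CPM with Ad-GFP and 45.4 and 48.3 CPM with Ad-Cre. Oas2, an activator of RNase L, had 0.573 and 1.19 CPM with Ad-GFP and 3.94 and 8.86 CPM with Ad-Cre. It is one of several similar Oas genes, and reads that fit more than 1 of them may have been skipped for low mapping quality. In order, all 3 had both libraries with Ad-Cre above both with Ad-GFP, and edgeR's quasi-likelihood test gave log2 fold changes of 1.83 (0.32, 0.00656), 1.98 (0.47, 0.0323) and 2.85 (0.50, 0.00667). The adjusted p of Bst2 was 0.0532, 0.0742 and 0.051 without Cre-2, GFP-1 and GFP-2, that of Oas2 0.05 and 0.0894 without Cre-2 and GFP-1, and that of Ifit3 0.0657 to 0.226 without any 1 library. Irf7, a transcription factor of this response, rose by 1.35 (0.31, 0.0244, 0.0549 to 0.201 without any 1 library).

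Genes of antigen presentation rose in part. Of 15 genes of MHC class I and its peptide processing, 5 passed as higher, and 11 were higher and 1 lower with the block (1.94% of all genes passed as higher, 12.9% with the block), with a median log2 fold change of 1.17. H2-D1, a classical class I heavy chain, had 120 and 161 CPM with Ad-GFP and 394 and 1154 CPM with Ad-Cre, and H2-Q4, a non-classical one, had 47.3 and 54.0 CPM with Ad-GFP and 100 and 273 CPM with Ad-Cre. In both, MT194-Cre replicate 2 was far above the other 3 libraries. The changes were 2.46 (0.53, 0.0194) and 1.88 (0.46, 0.034) by edgeR's quasi-likelihood test. Both calls ended without Cre-2, without GFP-1 and without GFP-2. H2 genes are similar copies, and reads that fit more than 1 of them may have been skipped for low mapping quality. Psmb9, an immunoproteasome subunit, rose by 1.94 (0.33, 0.00497, 0.0608 without MT194-GFP replicate 2). The median change of the list was 0.63 in the pair of replicates 1 and 1.53 in the pair of replicates 2, and 1, 1 and 0 passed without Cre-2, GFP-1 and GFP-2.

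**Figure D3:**
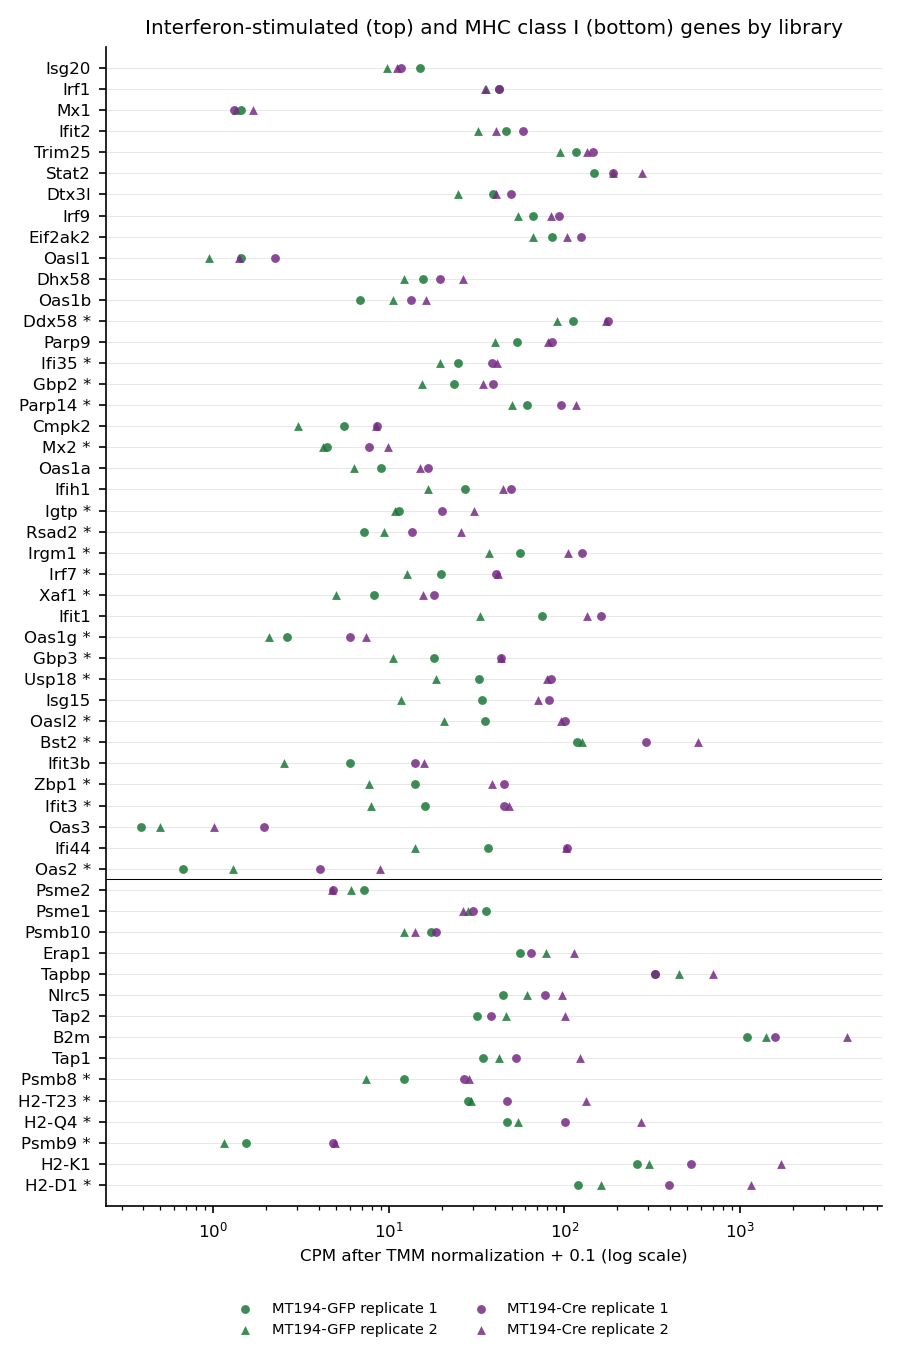
CPM after TMM normalization, plotted with 0.1 added on a log axis, of 39 interferon-stimulated genes (top) and 15 MHC class I and antigen processing genes (bottom) in the 4 MT194 libraries, with colours, symbols and asterisks as for the sterol genes. Most purple symbols lie to the right of the green ones, with MT194-Cre replicate 2 (purple triangles) far to the right for H2-D1, H2-K1 and B2m.

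To show what members of these groups have upstream of their starts, the 250 bases before the RefSeq start of 1 sterol gene and 2 interferon-stimulated genes that passed are printed 5′ to 3′ on the strand of the gene (RefSeq, GRCm38.p6, which has the coordinates of mm10), with motif matches in capitals. Hmgcs1 lies at chr13:119690101-119690350 (plus strand), Ifit3 at chr19:34583279-34583528 (plus) and Bst2 at chr8:71537473-71537722 (minus).
Hmgcs1: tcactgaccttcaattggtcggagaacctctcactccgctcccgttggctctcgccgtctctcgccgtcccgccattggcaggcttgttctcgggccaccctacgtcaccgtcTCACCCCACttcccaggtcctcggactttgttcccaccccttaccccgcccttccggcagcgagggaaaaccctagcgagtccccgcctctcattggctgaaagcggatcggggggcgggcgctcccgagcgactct
Ifit3: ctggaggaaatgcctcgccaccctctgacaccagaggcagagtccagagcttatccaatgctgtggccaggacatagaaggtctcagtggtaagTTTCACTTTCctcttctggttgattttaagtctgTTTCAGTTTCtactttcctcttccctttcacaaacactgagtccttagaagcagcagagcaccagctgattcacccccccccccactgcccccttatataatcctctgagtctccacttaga
Bst2: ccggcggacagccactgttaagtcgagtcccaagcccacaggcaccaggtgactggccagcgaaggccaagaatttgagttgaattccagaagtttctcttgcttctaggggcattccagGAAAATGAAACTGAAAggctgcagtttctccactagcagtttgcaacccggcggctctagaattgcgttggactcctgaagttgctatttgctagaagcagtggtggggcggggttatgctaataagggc
The motif in Hmgcs1 is TCACNCCAC, a form of the sterol regulatory element that SREBP binds, and the motif in the other genes is GAAA, any 2 bases and GAAA again, the core of the interferon-stimulated response element, each searched on both strands. In Bst2 the 2 matches overlap, and in Ifit3 both lie on the opposite strand. This motif was present in 15 of the 31 interferon-stimulated genes with a RefSeq window (48.4%), against 353 of 10889 genes tested (3.24%). TCACNCCAC was present in 1 of 15 sterol genes (6.67%), against 1.33% of genes tested, and in none of 12 SREBP regulators and 11 fatty acid genes. These are matches of letters in a window and do not show binding.

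Contractile genes rose in part. Smooth muscle genes, which fibroblasts express when they become contractile, are driven by SRF and its coactivators. Of 21 measured, 8 passed as higher and 1 as lower, against 1.94% and 2.55% of all genes, and 14 and 1 did with the block, against 12.9% and 13.8%. Acta2, smooth muscle actin, on chromosome 19 from 34241090 to 34255590, had 24.9 and 29.6 CPM with Ad-GFP and 174 and 187 CPM with Ad-Cre, a log2 fold change of 2.73 (0.23, edgeR quasi-likelihood adjusted p 7.02e-05). Tagln, a partner of actin, had 37.1 and 39.3 CPM with Ad-GFP and 187 and 169 CPM with Ad-Cre, and Cnn1, a calponin, 2.72 and 2.63 CPM and 17.5 and 11.9 CPM. In these 3 genes the gap between the groups was far wider than the difference between replicates. Tagln rose by 2.22 (0.27, 0.000752) and Cnn1 by 2.46 (0.25, 0.000272), while Mylk, the myosin light chain kinase, fell by 1.63 (0.37, 0.0245, and 0.167, 0.0846 and 0.116 without Cre-1, GFP-1 and GFP-2). Without MT194-GFP replicate 1, 5 of the 21 passed.

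Genes of TGF-beta and YAP/TEAD signaling rose in part. Of 21 TGF-beta ligands, receptors and response genes 6 passed, all higher, and 9 were higher and 1 lower with the block, against 1.94% of all genes as higher and 12.9% and 13.8% with the block. These shares also stand beside the YAP/TEAD targets. Among the TGF-beta genes that passed were Thbs1, Inhba, Skil, Smad7 and Pmepa1. Thbs1, a matrix protein that activates TGF-beta, had 201 and 300 CPM with Ad-GFP and 690 and 1539 CPM with Ad-Cre, an increase of 2.15 (0.47, edgeR quasi-likelihood adjusted p 0.0197, and 0.139, 0.179 and 0.0724 without Cre-2, GFP-1 and GFP-2). Smad7, an inhibitor of the pathway, rose by 1.02 (0.18, 0.00693, 0.0554 without GFP-1 and 0.0667 without GFP-2). Inhba, the activin A subunit, rose by 1.89 (0.25, 0.00102). Tgfb1, Tgfb2, Tgfbr1 and Tgfbr2 had log2 fold changes of -0.09, -0.19, 0.33 and -0.16 and did not pass. With the block Tgfbr1 passed as higher (edgeR quasi-likelihood adjusted p 0.013, and 0.761 without it), and Tgfb1, Tgfb2 and Tgfbr2 did not pass. Of 24 targets of YAP and TEAD 4 passed as higher, and 14 were higher and 1 lower with the block. Ctgf, a matricellular protein and the best known target, had 40.6 and 87.2 CPM with Ad-GFP and 352 and 702 CPM with Ad-Cre, an increase of 3.04 (0.46, 0.00263). In Ctgf and Thbs1 both replicates 2 were above replicates 1 of the same virus and the groups did not overlap. Cyr61, a relative of Ctgf, had a log2 fold change of 2.05 (0.59) at an adjusted p of 0.0723, and 6.09e-05 with the block. Without GFP-1, 3 of the TGF-beta genes passed, and 1 of the YAP/TEAD targets did without Cre-2, GFP-1 or GFP-2.

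Some immediate early genes and genes of ERK feedback rose. Of all 13805 genes, 4803 were higher in both pairs. Of 21 AP-1 and immediate early genes 20 were higher in both pairs, 4 passed and 11 did with the block, all higher, against 1.94% and 12.9% of all genes, and 2 passed without Cre-2, GFP-1 or GFP-2. Myc, a growth regulator, had 65.0 and 68.7 CPM with Ad-GFP and 147 and 119 CPM with Ad-Cre, an increase of 0.99 (0.15, edgeR quasi-likelihood adjusted p 0.00264). Ier5 rose by 1.02 (0.13, 0.000845) and Maff by 1.38 (0.27, 0.0107, and 0.0604, 0.0925 and 0.0793 without Cre-2, GFP-1 and GFP-2). Fos, Jun and Egr1, the best known immediate early genes, had log2 fold changes of 0.50, 0.30 and 0.68 and did not pass, also with the block. Of 19 ERK feedback genes 3 passed, all higher: Dusp1, a phosphatase of MAP kinases, by 1.01 (0.20, 0.0118, 0.0516 to 0.0976 without any 1 library), Spry4, an inhibitor of receptor signaling, by 1.34 (0.27, 0.0144, and 0.0811, 0.139 and 0.0608 without Cre-2, GFP-1 and GFP-2), and Etv4, a transcription factor, by 1.26 (0.25, 0.0122, 0.0799 without Cre-1 and 0.136 without GFP-1). With the block 12 did, and without Cre-1, Cre-2, GFP-1 and GFP-2 1, 1, 0 and 1 did. Of 28 kinase genes of the PI3K-AKT and RAF-MEK-ERK pathways, 1 passed as higher and 2 as lower, all under 1 in size, and 4 and 4 did with the block, near the 12.9% and 13.8% of all genes, and 0, 2, 1 and 0 without Cre-1, Cre-2, GFP-1 and GFP-2. Of 15 heat shock genes 2 rose, 6 with the block and 1 without Cre-1, GFP-1 or GFP-2, and Hspa1b, an inducible HSP70, had 17.8 and 18.1 CPM with Ad-GFP and 41.6 and 45.4 CPM with Ad-Cre, an increase of 1.27 (0.15, 0.000662).

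Genes of secreted signals rose in part. Of 23 chemokines and cytokines 4 passed, all higher, and 12 did with the block, against 1.94% and 12.9% of all genes, and 2 and 1 did without Cre-2 and GFP-1. Cxcl10, a chemokine for T cells that interferon induces, had 15.0 and 18.4 CPM with Ad-GFP and 45.9 and 56.7 CPM with Ad-Cre, an increase of 1.62 (0.16, edgeR quasi-likelihood adjusted p 0.000272). Il6 had 28.2 and 31.8 CPM with Ad-GFP and 72.6 and 152 CPM with Ad-Cre, an increase of 1.91 (0.31, 0.0036, 0.0549 without MT194-GFP replicate 1). The groups did not overlap in either. Of 26 growth factors, ligands and receptors 3 passed as higher and 1 as lower, with 8 and 4 with the block. Of all genes, 1.94% and 2.55% passed, and 12.9% and 13.8% with the block, so that the counts of lower genes were near the background. Hbegf and Ereg, ligands of the EGF receptor, rose by 2.37 (0.40, 0.00483, 0.071 without GFP-1) and 1.76 (0.33, 0.00976, 0.0756 without Cre-2 and 0.113 without GFP-1). Igf1, an insulin-like growth factor, fell by 1.5 (0.33, 0.0207, and 0.161, 0.0578 and 0.134 without Cre-1, GFP-1 and GFP-2). Fgf7, a fibroblast growth factor, was the third that rose, and 2, 0 and 2 of the 26 passed without Cre-2, GFP-1 and GFP-2. Of the 6 small proline-rich and cornified envelope genes measured, which belong to the epidermal barrier, 3 passed as higher, all of them Sprr genes. Reads that fit more than 1 of these similar genes may have been skipped for low mapping quality. With the block 3 were higher and 1 lower, and without GFP-1 1 passed. Sprr1a had 29.4 and 36.9 CPM with Ad-GFP and 133 and 131 CPM with Ad-Cre, an increase of 1.99 (0.20, 0.000272). The rise of this list was also seen with the other constructs. The median log2 fold change of the 6 was 1.98 with MT194, 3.07 with EV, 1.80 with MT486 and 1.65 with WT. With WT 1 of the 6 passed as higher, against 0.0217% of all genes.

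Proliferation genes showed opposite changes in both pairs. None of 42 DNA replication genes and none of 30 G2/M genes passed, also with the block. The median log2 change of the replication genes was 0.47 in the pair of replicates 1 and -0.32 in the pair of replicates 2, and that of the G2/M genes was 0.42 and -0.68. Mki67, a marker of cycling cells, had 285 and 555 CPM in MT194-GFP replicates 1 and 2, and 432 and 346 CPM in MT194-Cre. MT194-Cre replicate 2 was below MT194-Cre replicate 1 for all 30 G2/M genes, whereas with Ad-GFP replicate 2 was above replicate 1 for 26 of 30. Over the 10 groups of populations, the median difference of replicate 2 from replicate 1 ran from -0.93 to 0.39 for these genes. The direction of these lists in MT194 cells thus differed between the experiments.

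**Figure D4:**
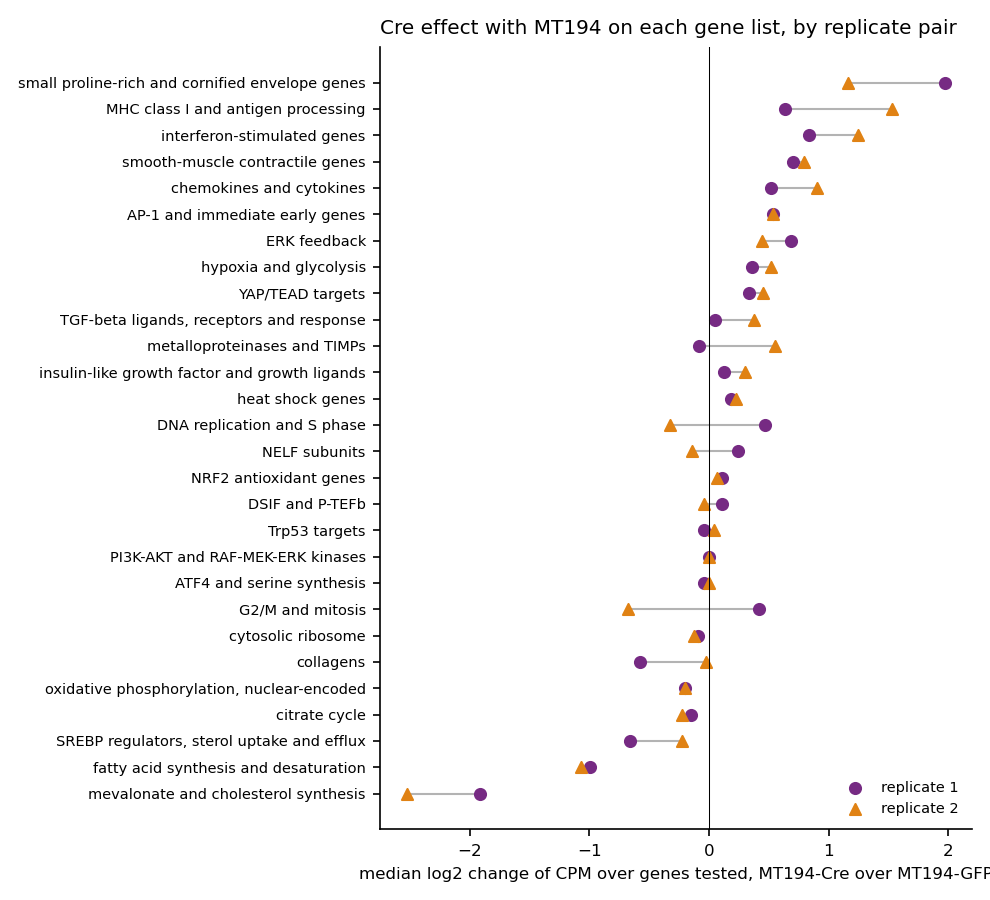
Median log2 change of CPM from MT194-GFP to MT194-Cre over the genes tested of each of 28 lists, in the pair of replicates 1 (circles) and of replicates 2 (triangles), joined by a grey line. Sterol and fatty acid genes lie below 0 and interferon genes above 0 in both pairs, whereas DNA replication and G2/M genes lie on opposite sides of 0.

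Of 24 targets of Trp53, 1 rose and 3 fell (1.94% and 2.55% of all genes did), 7 and 5 did with the block (12.9% and 13.8%), and 2 in all passed without GFP-1. Plk2, a kinase, rose by 1.03 (0.14, edgeR quasi-likelihood adjusted p 0.00102), and Perp, a tetraspan membrane protein, and Bbc3, which promotes apoptosis, fell by 1.57 (0.27, 0.00541) and 1.14 (0.22, 0.00982, 0.0984 without Cre-1 and 0.0736 without GFP-1). Cdkn1a, the CDK inhibitor p21, had 21.5 and 16.9 CPM with Ad-GFP and 37.2 and 18.2 CPM with Ad-Cre, and its adjusted p was 0.433. Only MT194-Cre replicate 1 stood clearly above the others. Of 22 collagens none passed, and all 22 were higher in replicate 2 than in replicate 1 with both viruses, with median log2 differences of 0.58 with Ad-GFP and 1.17 with Ad-Cre. With the block, 3 collagens passed as higher, near the 12.9% of all genes, and 6 as lower, against 13.8%. Of 19 metalloproteinases and inhibitors Timp3 passed, with an increase of 2.23 (0.47, 0.0167, 0.107 without Cre-2 and 0.167 without GFP-1). With the block 6 of the 19 passed as higher and 3 as lower, against the same shares, and 2, 0, 0 and 1 passed without Cre-1, Cre-2, GFP-1 and GFP-2.

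Of 22 antioxidant targets of NRF2 and of 20 genes of the ATF4 response none passed in MT194 cells. Their medians were 0.04 and -0.07, and with the block 3 rose and 3 fell, and 3 rose and 4 fell, near the 12.9% and 13.8% of all genes. Slc7a11, the cystine transporter, and Hmox1, heme oxygenase, had log2 fold changes of 0.36 and 0.19, and Atf4 itself of -0.40 (adjusted p 0.515, 0.00801 with the block). Of 25 hypoxia and glycolysis genes 1 passed, Ankrd37, which rose by 1.32 (0.32, 0.0327, 0.0715 to 0.214 without any 1 library), and 12 were higher and 1 lower with the block, against the same shares.

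The Cre effect with MT194 was compared with those with EV, WT and MT486 by tests of the difference between effects that share no libraries. With EV the floxed allele is lost without replacement, and with WT it is replaced by intact NELFB. Over all genes, edgeR's quasi-likelihood test called 1 gene different from EV, Nelfb (0.00724%, and 444 at an unadjusted p under 0.05, 3.22%), none from WT (615, 4.45%), and none from MT486 (214, 1.55%). With the block, 137 differed from EV (64 above and 73 below), 378 from WT (161 and 217), and none from MT486. The values of the lists below are therefore described with the block beside them.

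Sterol genes lay between EV and WT. Their median log2 fold change was -2.17 with MT194, -2.82 with EV, -1.87 with MT486 and -0.62 with WT, where none of the 20 passed. The change with MT194 was more negative than with WT for 20 of 20 genes. Of these, 17 passed the test of the difference with the block, as did 1.57% of all genes. Fitted with the block on the compared libraries alone, 14 of all genes differed from WT, 2 above and 12 below. Not all of the 17 therefore passed there. The change was less negative than with EV for 20 of 20 genes, and 3 passed that test with the block (0.464% of all genes). For Mvd the difference from WT was -2.15 (standard error 0.48), with an adjusted p of 0.31 by edgeR's quasi-likelihood test and of 2.03e-05 with the block. For fatty acid genes 8 of 14 were lower than with WT with the block, and 5 higher than with EV, among them Scd1 (0.91 above EV, adjusted p 0.00848 with the block and 1 without it).

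No interferon-stimulated gene passed the test of the difference from EV. Their medians were 1.05 with MT194, 0.85 with EV, 1.03 with MT486 and 0.48 with WT, and with the block none of the 40 passed the test of the difference from EV, and 3 were above WT, as were 1.17% of all genes. Contractile genes had medians of 0.68, 0.84, 0.91 and 0.29 in the same order, with none past the test of the difference from EV and 1 above WT. The Cre effect with WT itself passed as higher for 2 of these 21 genes, against 0.0217% of all genes. TGF-beta genes had 4 of 21 above WT and 2 above EV with the block, against 1.17% and 0.464% of all genes.

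For NRF2 and ATF4 genes the changes with MT194 lay below those with EV. With EV, 9 of 22 NRF2 genes and 9 of 20 ATF4 genes passed as higher, against 6.43% of all genes, with medians of 0.47 and 0.72. The medians of the NRF2 genes were 0.04 with MT194 and WT and 0.10 with MT486, and those of the ATF4 genes -0.07 with MT194, 0.33 with WT and 0.37 with MT486. The ATF4 genes with MT194 lay below WT for 18 of 20, of which 2 passed the test of that difference with the block, against 1.57% of all genes. The change with MT194 was below that with EV for 20 of 22 and 20 of 20 genes, of which 8 and 6 passed the test of the difference with the block, against 0.529% of all genes, and none without it. Cdkn1a had 15.3 and 12.1 CPM with Ad-GFP and 78.8 and 50.7 CPM with Ad-Cre in EV cells, a log2 fold change of 2.24. It changed by 0.53 with MT194, 0.85 with WT and 1.24 with MT486, so that MT194 lay below WT as well. The difference of MT194 from EV was -1.71 (0.43), with an adjusted p of 0.78 by edgeR's quasi-likelihood test over all genes and of 0.0438 with the block. G2/M genes had a median of -0.83 with EV, -0.07 with MT194 and 0.67 with WT, and none of the 30 passed the test of either difference.

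**Figure D5:**
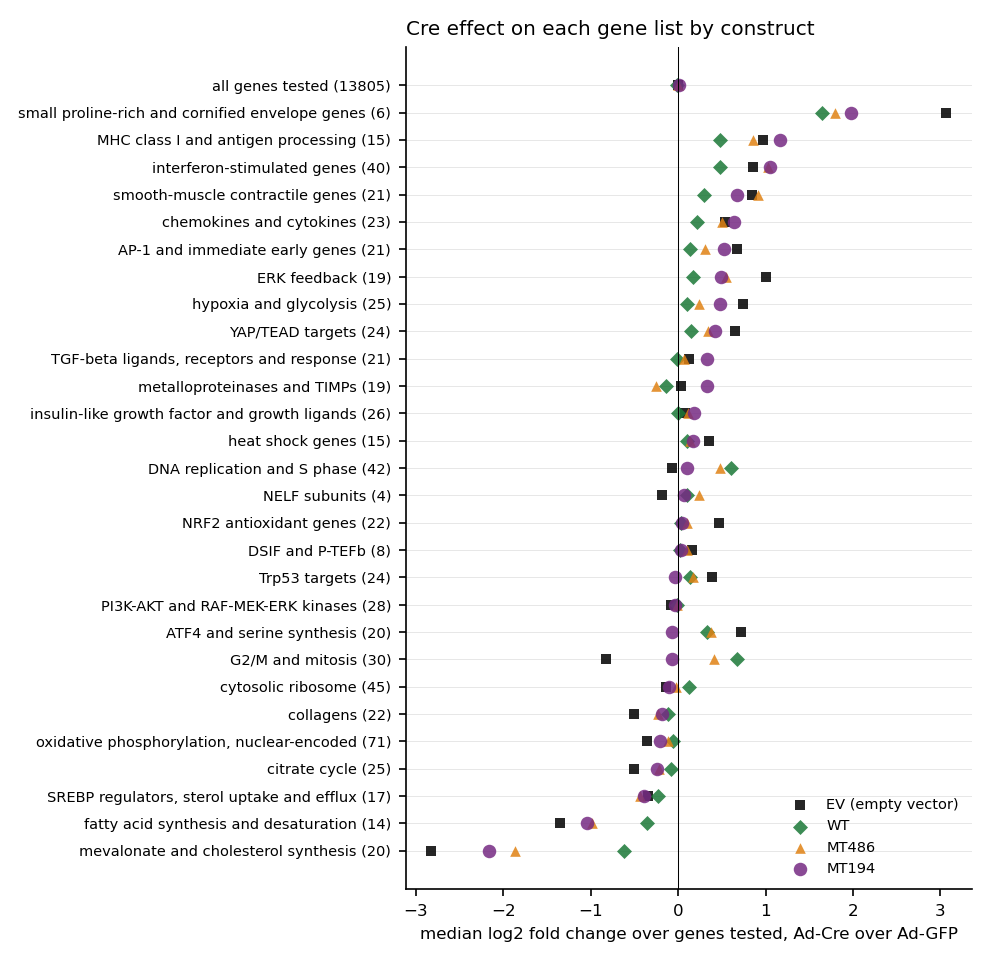
Median log2 fold change from Ad-GFP to Ad-Cre over the genes tested of each list (number of genes in brackets) and of all genes, with EV (black squares), WT (green diamonds), MT486 (orange triangles) and MT194 (purple circles). For sterol genes MT194 at -2.17 lies between EV at -2.82 and WT at -0.62, and for NRF2 and ATF4 genes MT194 lies near 0 while EV lies at 0.47 and 0.72.

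The comparison of Ad-Cre with Ad-GFP called 900 genes with EV (6.52%), 3 with WT (0.0217%), 201 with MT486 (1.46%) and 733 with DMT (5.31%). At any size, 1791 (13%), 3 (0.0217%), 350 (2.54%) and 1493 (10.8%) passed in the same order. The 165 called higher had a median log2 fold change of 1.61 with MT194, 1.61 with EV, 1.63 with DMT, which holds the same mutation, 1.23 with MT486 and 0.61 with WT, and 138, 136, 83 and 3 of them passed as higher with EV, DMT, MT486 and WT. The 178 called lower had medians of -1.65, -1.83, -1.76, -1.23 and -0.61 in the same order, and 161, 166, 95 and 0 passed as lower with those 4. The genes were chosen by their change in MT194 cells, so that their medians there are a description.

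Genes outside the lists were among the largest changes. The 3 largest falls among called genes averaging 50 counts or more were those of Spib, an ETS transcription factor of lymphoid cells, from 6.25 and 3.98 CPM to 0.53 and 0.337 CPM, of Lipg, endothelial lipase, from 18.4 and 26.6 CPM to 2.91 and 1.06 CPM, and of Anpep, aminopeptidase N, from 33.5 and 31.4 CPM to 1.89 and 5.54 CPM. Their log2 fold changes were -3.52 (0.54, edgeR quasi-likelihood adjusted p 0.00292), -3.47 (0.41, 0.000662) and -3.15 (0.44, 0.00165). Stk32b, a kinase gene, had a change of -2.86 (0.41, 0.00211) and Ccdc148 of -2.86 (0.55, 0.0102, and 0.0508, 0.0828 and 0.0897 without Cre-1, Cre-2 and GFP-1). The largest rise among such genes was that of Tmem171, a membrane protein gene, from 0.525 and 0.746 CPM to 4.88 and 6.64 CPM, by 3.17 (0.32, 0.000272). Il13ra2, a decoy receptor of interleukin 13, rose by 2.65 (0.54, 0.0143, and 0.122, 0.132 and 0.0894 without Cre-2, GFP-1 and GFP-2), with 23.2 CPM in MT194-Cre replicate 1 and 86.7 CPM in replicate 2, and Mcam, an adhesion molecule, by 2.39 (0.51, 0.0183, 0.0797 without Cre-2 and 0.17 without GFP-1). F830016B08Rik, a gene known by its clone name, rose by 2.65 (0.33, 0.000845).

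Of 10 fibroblast markers, 9 had a mean of 1 CPM or more, and Thy1 was at or near 0. Col1a1 had 5101 and 8119 CPM with Ad-GFP and 3342 and 8175 CPM with Ad-Cre, and Fn1, fibronectin, was the most abundant with 9220 to 24299 CPM. The 6 epithelial, 5 endothelial and 5 skeletal muscle markers stayed under 1 CPM on average, and their sums were at most 1.29, 1.25 and 0.378 CPM in any library. Of leukocyte markers Ptprc and Adgre1 had at most 0.0481 CPM, and the sum of all 6 was 6.21 and 9.0 CPM with Ad-GFP and 5.71 and 10.5 CPM with Ad-Cre, led by Lyz2. Neural markers summed to 67.4 and 106 CPM with Ad-GFP and 111 and 163 CPM with Ad-Cre, mostly Nes, and adipocyte markers to 125 and 86.7 CPM and 79.6 and 70.6 CPM, mostly Fabp4. None of those of the 41 markers that entered the test passed it, and their part in the other results was not tested.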

How the data were processed

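Per the submitters' processing notes and the study's methods, the authors aligned reads to mm10 with Bowtie2, skipped alignments with a mapping quality under 30 and counted reads per gene with HTSeq (versions not given in the sources used here). The deposited files hold raw counts per gene. The library kit was stranded, but whether counting used strand is not stated. Reads on no gene (12.9% to 18.2% per MT194 library) were left out. Counts were fitted with edgeR 4.0.16 in R 4.3.3 (filterByExpr, TMM, robust quasi-likelihood fit) over 20 populations in 10 groups of 2, and the same steps were tested on simulated data. Groups came from the labels. The comparison and its gene lists were chosen with earlier results of these data known. Named genes were the NELF subunits, the 10 largest called changes in each direction averaging 50 counts or more, and up to 4 members per list that passed (2 by abundance where none did). Other genes, among them Idi1, Sc5d, Ebp, Abca1, Mylk, Smad7, Pmepa1, Slc7a11, Hmox1 and those in the closing observations, were chosen after their values were seen. Some genes that this rule names are not reported here. Same-numbered libraries deviated together in 45 of 45 pairs of groups (correlations 0.42 to 0.73, 0.56 for MT194-Cre with MT194-GFP), so that the numbers pair the samples. The alternatives were a replicate block, a fit of the compared libraries alone, DESeq2 1.42.0, its size factors in edgeR, no filter on low counts, another fold threshold and leaving out each library. Leaving out a library was run only without the block. The block together with the compared libraries alone was added after seeing the data.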

Additional observations from a re-analysis of the deposited data

Results flagged for a closer look

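The Cre effect on Nelfb differed between MT194 and EV cells by the test of the difference itself, by 3.38 on the log2 scale (standard error 0.29, edgeR quasi-likelihood adjusted p 0.000449), with 0.71 with MT194 and -2.67 with EV. Both MT194 pairs rose and both EV libraries with Ad-Cre were below those with Ad-GFP. Reads of Nelfb in MT194 cells include those of the construct, so that a difference from EV follows from the design. A rise was not particular to MT194, since the log2 fold change was 0.51 with MT486, and it was -0.40 with WT.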

How the results depend on the processing

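The 343 called genes became 744 with the replicate block, 582 at a log2 fold change over 0.5 and 0 when only the 4 libraries were fitted without the block. They ranged from 149 to 231 on leaving out 1 library, and 86 were called in all 4 of those fits. The 620 that passed at any size became 3687 with the block, 1128 with DESeq2, 0 with only the libraries compared, 1284 with those libraries and the block, and 189 to 294 on leaving out 1 library. Genes different from EV (1) became 137 with the block, 21 with DESeq2, 0 with only the libraries compared and 32 with those and the block, and genes different from WT (0) became 378, 68 and 14 with the block, DESeq2 and the block on the libraries compared. None differed from MT486 under any alternative run. Of the Cre effects of 135 named genes, 108 passed, and 41 of these also passed without each of the 4 MT194 libraries. The block ended no call among them and added 7. DESeq2 ended 1, no filter 7 and the compared libraries alone 107, and the remaining 1, Hist1h4a, was not tested in that fit. The cause of these shifts was not tested.

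Among the named genes, the only ones that are tabulated in this way, directions turned for 16, none of which passed. Supt5 had 0.0088 with DESeq2 and 0.0089 with its size factors in edgeR, and Top2a -0.0099 with the block and -0.0218 with the block on the libraries compared. On leaving out 1 library the log2 fold changes ranged from -0.349 to 0.045 for Atp5a1, -0.081 to 0.955 for Cdkn1a, -0.982 to 0.305 for Col1a1, -0.679 to 0.625 for Col1a2, -0.689 to 0.355 for Fth1, -0.163 to 0.733 for Mcm5, -0.51 to 0.45 for Mki67, -0.317 to 0.142 for Nelfa, -0.00306 to 0.372 for Nelfcd, -0.426 to 0.0853 for Nelfe, -0.339 to 0.451 for Rpl4, -0.322 to 0.273 for Rpl8, -0.274 to 0.499 for Rrm1, -0.836 to 0.0751 for Srebf1, -0.0200 to 0.00284 for Supt5 and -0.397 to 0.327 for Top2a. With 2 libraries per group, the fit without the block did not detect small changes that it detected with the block, such as that of Atp5b (-0.29, adjusted p 0.647 without and 0.0433 with it).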

Other observations

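Genes of the histone clusters have RNAs that mostly lack a poly(A) tail and are counted only in part in such libraries. The log2 fold change was above 0 for 32 of 32 tested, as for 7136 of all 13805 genes. Of the 32, 7 passed as higher, 20 with the replicate block, against 1.94% and 12.9% of all genes. Cluster genes below the filter on low counts were not examined, and genes with few reads can pass that filter through the groups where they are high. These histone genes were noticed after the values were seen. Many are similar copies, and reads that fit more than 1 of them may have been skipped for low mapping quality. Their summed level was 121 and 79.1 CPM with Ad-GFP and 218 and 144 CPM with Ad-Cre, and their median log2 fold change was 1.69 with MT194, 1.54 with EV, 1.52 with MT486 and 0.71 with WT. Hist1h4h, a histone H4 gene, had 1.62 and 1.24 CPM with Ad-GFP and 6.51 and 6.16 CPM with Ad-Cre, an increase of 2.14 (standard error 0.25, edgeR quasi-likelihood adjusted p 0.000574). Leaving out any 1 MT194 library did not end the call of Hist1h4h. Hist1h1a, Hist1h1e, Hist1h2ad, Hist1h2be, Hist1h4a and Hist1h4i each did not pass in at least 1 of those fits.

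Among other genes chosen after their values were seen, Cdkn2a and Cdkn2b, neighbouring genes of CDK inhibitors, fell. Cdkn2a had 72.5 and 56.6 CPM with Ad-GFP and 26.4 and 24.3 CPM with Ad-Cre, a log2 fold change of -1.35 (0.26, edgeR quasi-likelihood adjusted p 0.0106, and 0.0613, 0.0798 and 0.0974 without MT194-Cre replicate 1, MT194-Cre replicate 2 and MT194-GFP replicate 1). Cdkn2b had 46.6 and 28.2 CPM with Ad-GFP and 11.3 CPM in both libraries with Ad-Cre, a change of -1.73 (0.31, 0.00718, and 0.058, 0.0558 and 0.0828 without the same). Both genes had lower values in each library with Ad-Cre. Peg10, an imprinted gene, had 46.4 and 49.0 CPM with Ad-GFP and 197 and 156 CPM with Ad-Cre, an increase of 1.89 (0.23, 0.000662), and Zim1, a zinc finger gene, fell by 3.12 (0.49, 0.00344). Cav1, the main protein of caveolae, rose from 133 and 174 CPM to 407 and 475 CPM, by 1.52 (0.19, 0.00067). Aacs, which activates acetoacetate for lipid synthesis, fell by 1.05 (0.17, 0.0036), and Lpin1, a phosphatidate phosphatase, by 1.08 (0.11, 0.000283).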
